A study of Homo sapiens with 8 samples.

Results

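The genes described here encode the nuclear subunits of the 5 oxidative phosphorylation complexes of the mitochondrial inner membrane. They were chosen by symbol, as every probe whose symbol begins with NDUFA, NDUFB, NDUFC, NDUFS, NDUFV, UQCR, COX4 to COX8 or ATP5, or is SDHA, SDHB, SDHC, SDHD or CYC1, and each gene was read from the probe with the highest mean over all arrays. This gave 92 genes, with 121 probes, of the 31426 genes and 47322 probes on the array. By role, 37 genes belonged to complex I, 4 to complex II, 9 to complex III, 18 to complex IV and 15 to complex V. Of the other 9, 2 are pseudogenes (ATP5EP2 and COX6BP1) and 7 are not subunits, namely the assembly factors NDUFAF1, NDUFAF2 and NDUFAF3, the supercomplex factor COX7A2L, and ATP5S, ATP5SL and COX4NB. NDUFA4, once assigned to complex I, and its relative NDUFA4L2 were counted with complex IV. Symbols are those of the array, and 23 of the 92 are older names.

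Complexes I and II pass electrons from NADH and succinate to ubiquinone, complex III passes them on to cytochrome c, and complex IV reduces oxygen. Complexes I, III and IV pump protons, and complex V, the ATP synthase, makes ATP as the protons flow back. Complex II, succinate dehydrogenase, is also an enzyme of the tricarboxylic acid cycle and is the complex with no subunit encoded in the mitochondrial genome.

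Gene expression was measured in SH-SY5Y, a neuroblastic human neuroblastoma line, and in SH-EP2, a neuroblastoma line of epithelial-like form, to ask what the channel-kinase TRPM7 controls in tumor cells. Each line was stably transduced with a lentivirus that carried either a scrambled shRNA (control) or a TRPM7 shRNA, and the 4 groups of 2 arrays each make 8 Illumina bead arrays of total RNA. All groups, controls included, therefore carry a lentiviral shRNA, each line stands for its phenotype alone, a single TRPM7 shRNA sequence was used on the arrays, and no source says that the duplicates were separate cultures, so that p-values measure the spread between arrays that may be technical. In bulk RNA, fewer cells of a type and less RNA per cell cannot be told apart.

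TRPM7 itself could not be read. Its probe was detected on 0 of 8 arrays, with a detection p, the share of background probes at least as bright, of 0.0753 to 0.201. The arrays had median signals of 104.7 to 119.9 and detected 40.8% to 44.2% of probes at a detection p under 0.05, and their number limits the precision of every value. The line labels were borne out by most markers. The summed signal of 13 noradrenergic genes was 27887 to 38985 on the SH-SY5Y arrays and 362 to 422 on the SH-EP2 arrays. That of 13 mesenchymal genes was 62362 to 73158 on the SH-EP2 arrays and 12348 to 15604 on the SH-SY5Y arrays. Among control arrays 12 genes of each list differed in the direction of the label at an adjusted p under 0.05. The noradrenergic exception was TH, detected on 0 arrays. The mesenchymal one was VIM, the brightest of its list in SH-SY5Y cells, which was lower in SH-EP2 control cells (-0.19) and higher among TRPM7 shRNA arrays (0.23). The probes of 81 of the 92 genes were detected on all 8 arrays. NDUFS6, COX4I2, COX6A2, COX6B2, COX7A1, COX8C, NDUFA4L2 and COX6BP1 were not detected on any array, and NDUFA5, NDUFB4 and COX7B2 were detected on 4, 3 and 4 arrays. Values below are log2 normalized signals, differences are log2 differences with the standard error of the limma fit, and a gene is said to rise, fall or differ where its p-value, adjusted over all probes by Benjamini-Hochberg, was under 0.05. Among the 81 genes the SD between the 2 arrays of a group had a median of 0.066.

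TRPM7 shRNA moved few of these genes. In SH-SY5Y cells 3 of 92 differed, with COX7C and ATP5B higher and NDUFS4 lower, where 2.57% of all genes did. In SH-EP2 cells COX7C and CYC1 rose and none fell, which is 2 of 92 where 3.67% of all genes differed. The shares of genes detected on all 8 arrays that rose and fell were 2.05% and 3.86% in SH-SY5Y cells and 4.05% and 4.2% in SH-EP2 cells. COX7C was the member that rose in both lines, as did 61 genes in all, or 0.194%.

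COX7C encodes a small structural subunit of complex IV, the cytochrome c oxidase. In SH-SY5Y cells its signal was 12.82 and 12.76 on the control arrays and 13.33 and 13.22 on the TRPM7 shRNA arrays. In SH-EP2 cells it was 12.60 and 12.62 on the control arrays and 13.30 and 13.35 on the TRPM7 shRNA arrays. The shRNA arrays were the brighter ones in each line, with no overlap between groups. The increase was 0.48 ± 0.06 (1.40-fold, adjusted p = 8.84e-05, limma) in SH-SY5Y cells and 0.71 ± 0.06 (1.64-fold, adjusted p = 8.31e-07) in SH-EP2 cells. The difference between these increases, 0.23 ± 0.09, did not pass (adjusted p = 0.325). The control arrays of SH-SY5Y cells were brighter than those of SH-EP2 cells by 0.18 ± 0.06 (adjusted p = 0.0357), whereas among TRPM7 shRNA arrays the lines lay 0.05 ± 0.06 apart (adjusted p = 0.694). The increases passed whichever array was left out, whereas the gap between the lines in control arrays was lost without SH-SY5Y control replicate 1 and without each of the 4 SH-EP2 arrays (adjusted p = 0.0573 to 0.161). Without an intensity trend in the spread estimate the increases did not pass (adjusted p = 0.389 and 0.177).

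ATP5B, now named ATP5F1B, encodes the catalytic beta subunit of the ATP synthase. It read 13.57 and 13.62 on the SH-SY5Y control arrays and 13.81 and 14.07 on the TRPM7 shRNA arrays, all of the latter above the former but 0.26 apart from each other. The rise was 0.34 ± 0.07 (adjusted p = 0.00829, limma), and without SH-SY5Y TRPM7 shRNA replicate 2 it was 0.22 with an adjusted p of 0.113. Without SH-SY5Y control replicate 1 it was 0.33 with an adjusted p of 0.0588. In SH-EP2 cells ATP5B moved by 0.13 ± 0.07 (adjusted p = 0.488).

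NDUFS4, an accessory subunit of complex I that is needed for its assembly, read 11.16 and 11.26 on the SH-SY5Y control arrays against 10.88 and 10.92 on the TRPM7 shRNA arrays. The shRNA arrays were the lower pair, and the difference was -0.31 ± 0.07 (adjusted p = 0.0295). This call rested on the scaling and on single arrays. It was lost with median scaling (-0.18, adjusted p = 0.434) and when any of 7 of the 8 arrays was left out, the exception being SH-SY5Y control replicate 1, with adjusted p-values of 0.0568 to 0.189. In SH-EP2 cells NDUFS4 read 11.50 and 11.51 on the control arrays and 11.41 and 11.46 on the TRPM7 shRNA arrays (-0.07 ± 0.07, adjusted p = 0.784).

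CYC1 encodes cytochrome c1, the heme protein of complex III that hands electrons to cytochrome c. In SH-EP2 cells it read 11.35 and 11.30 on the control arrays and 11.64 and 11.62 on the TRPM7 shRNA arrays, a rise of 0.31 ± 0.08 (adjusted p = 0.0288). In SH-SY5Y cells the groups overlapped, at 11.15 and 11.02 on the control arrays and 11.09 and 11.13 on the TRPM7 shRNA arrays. The SH-EP2 call was lost with median scaling (0.30, adjusted p = 0.167) and without each of the 4 SH-EP2 arrays (adjusted p = 0.124 without control replicate 1, 0.232 without control replicate 2, 0.218 without TRPM7 shRNA replicate 1 and 0.182 without TRPM7 shRNA replicate 2).

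**Figure D1:**
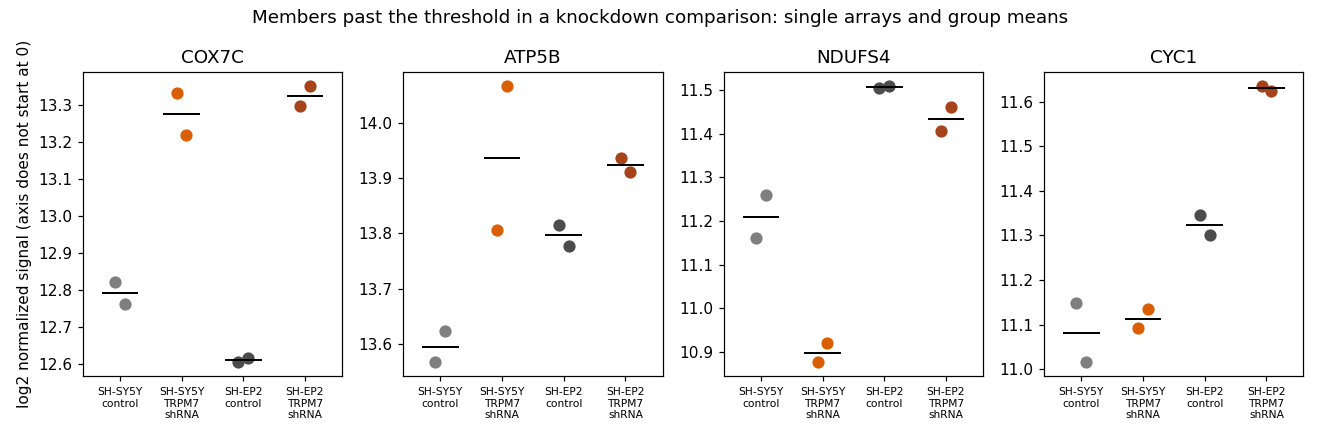
Log2 normalized signal of the members that passed the threshold in a knockdown comparison, with a point for each array and a line for each group mean (2 arrays a group); each panel has its own axis, which does not start at 0. COX7C was higher with TRPM7 shRNA in both lines, ATP5B and NDUFS4 moved in SH-SY5Y cells, and CYC1 was higher in SH-EP2 cells, where its control arrays read 11.35 and 11.30 and its TRPM7 shRNA arrays 11.64 and 11.62.

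The bases upstream of COX7C and NDUFS4, the members that differed and whose promoter was at hand, are shown because their direction was opposite. The windows come from RefSeq on GRCh38.p14 and matched 73 of the 92 genes (ATP5B and CYC1 were not among them), and each is printed 5′ to 3′ on the strand of the gene, as the 210 bases before the annotated start. For COX7C this is chr5:86617731-86617940 and for NDUFS4 chr5:53560429-53560638, both on the plus strand, and capitals mark a match to TACAANTCC, part of the recognition sequence of ZNF143, which was looked for after the COX7C sequence had been seen.
COX7C: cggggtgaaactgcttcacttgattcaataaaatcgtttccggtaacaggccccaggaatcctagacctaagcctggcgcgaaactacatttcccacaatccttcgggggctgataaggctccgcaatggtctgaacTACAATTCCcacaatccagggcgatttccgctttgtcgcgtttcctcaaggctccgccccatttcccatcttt
NDUFS4: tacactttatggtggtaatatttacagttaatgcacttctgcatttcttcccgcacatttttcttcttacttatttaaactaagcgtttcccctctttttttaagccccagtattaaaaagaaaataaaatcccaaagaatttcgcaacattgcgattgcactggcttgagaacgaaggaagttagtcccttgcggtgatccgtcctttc
Searched on both strands from 250 bases before to 50 bases after each start, TACAANTCC was found for 4 of the 73 genes (5.48%) and for 1.82% of all 27305 genes with such a window. A gene counted once if any of its windows held the letters, and 11 of the 73 genes had several windows. None of the letters sought occurred in the printed bases of NDUFS4.

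Without reaching the threshold, more members lay above 0 than below it. In SH-EP2 cells 66 of 92 members were above 0 (71.7%), against 53.6% of genes detected on all arrays and 62.2% of genes at least as bright as the median member. The median difference over the members was 0.10, against 0.02 and 0.04 in those groups of genes and 0.01 over all genes. At an unadjusted p under 0.05, 22 members were higher and 2 lower in SH-EP2 cells, where the shares among genes detected on all arrays were 14.1% and 12%. Of the 1000 genes at least as bright as the median member, 181 were higher and 101 lower. In SH-SY5Y cells 56 of 92 members lay above 0 (60.9%), against 51.7% of genes detected on all arrays and 51.8% of equally bright genes. The median there was 0.03 against 0.003 over all genes, and it was 0.003 without SH-SY5Y TRPM7 shRNA replicate 1 and 0.078 without SH-SY5Y TRPM7 shRNA replicate 2. In that line 8 were higher and 4 lower at an unadjusted p under 0.05, where the shares among detected genes were 10.9% and 11.9%. Of the 1000 equally bright genes, 113 were higher and 113 lower there. The members are not independent of each other, and these counts and medians carry no test.

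Complexes III and V had the highest shares of genes above 0. Of the 15 genes of complex V, 14 lay above 0 in SH-SY5Y cells (median 0.10) and 14 in SH-EP2 cells (median 0.15), and 13 did so in both. All 9 genes of complex III lay above 0 in SH-EP2 cells (median 0.18), and 7 of 9 in SH-SY5Y cells (median 0.08). Complex I had medians of 0.03 and 0.10, with 23 and 27 of 37 genes above 0. Complex IV had medians near 0, at -0.005 and 0.02, and the COX7C values stood outside the range of its other genes that were detected on all arrays. Complex II had 2 of 4 genes above 0 in SH-SY5Y cells and 3 of 4 in SH-EP2 cells, with medians of -0.03 and 0.09. Median scaling raised the background in SH-SY5Y cells. The median became 0.10 over all genes and over genes at least as bright as the median member, and 0.15 over genes detected on all arrays. The median of complex V there was 0.22. Those of complexes II and IV were 0.10 and 0.09, below that of genes detected on all arrays.

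**Figure D2:**
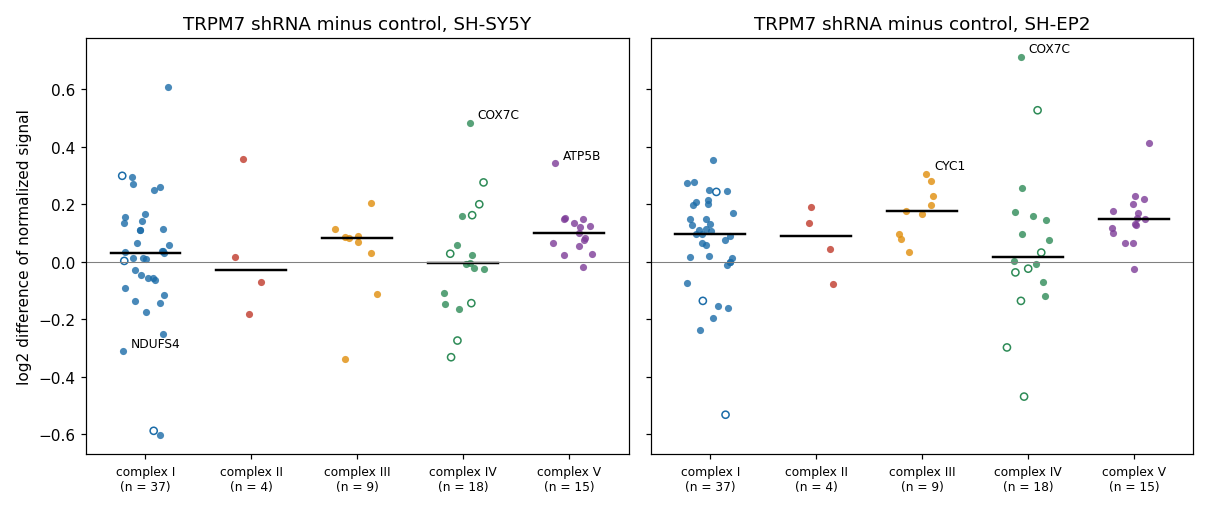
Log2 difference between TRPM7 shRNA and control arrays for each subunit gene, by complex, in SH-SY5Y cells (left) and SH-EP2 cells (right); filled points were detected on all 8 arrays, open points were not, black lines are medians, and members past the threshold are named. Of the 15 points of complex V, 14 lie above 0 in each line, and COX7C is the highest filled point of complex IV in both.

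The members ranked next by size did not pass. In SH-SY5Y cells NDUFB1, a complex I accessory subunit, read 3.88 and 3.92 on the control arrays and 4.94 and 4.08 on the TRPM7 shRNA arrays, so that its difference of 0.61 ± 0.39 came from 1 array (adjusted p = 0.627). The flavoprotein SDHA (0.36 ± 0.11, adjusted p = 0.104) and the NADH-binding subunit NDUFV1 (0.29 ± 0.12, adjusted p = 0.314) were also above 0. Below 0 lay NDUFV3 (-0.60 ± 0.24, adjusted p = 0.297), UQCR (-0.34 ± 0.25, adjusted p = 0.693), NDUFC2 (-0.25 ± 0.35, adjusted p = 0.876) and SDHD (-0.18 ± 0.12, adjusted p = 0.620). The second NDUFV3 probe, detected on 5 arrays, lay above 0 (0.68, adjusted p = 0.689). SDHA passed with median scaling (0.48, adjusted p = 0.0342) and with only the probes detected on at least 2 arrays (adjusted p = 0.0448).

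In SH-EP2 cells the corresponding values above 0 were those of COX7B2 (0.53 ± 0.49), ATP5G3, a membrane ring subunit of the ATP synthase (0.41 ± 0.22), NDUFAF1 (0.35 ± 0.13) and NDUFB9 (0.35 ± 0.11), with adjusted p-values of 0.758, 0.486, 0.205 and 0.119. Below 0 lay NDUFAF3 (-0.24 ± 0.07, adjusted p = 0.0603), the iron-sulfur subunit NDUFS1 (-0.24 ± 0.28), NDUFA1 (-0.20 ± 0.07), NDUFS8 (-0.16 ± 0.09) and COX7A2L (-0.16 ± 0.08), the last 4 with adjusted p-values of 0.196 to 0.826. The 2 arrays of NDUFAF3 read 12.19 and 12.22 in control cells and 11.95 and 11.97 in TRPM7 shRNA cells, without overlap. Fitted with SH-EP2 arrays alone, where 6.63% of all genes, detected or not, passed, 15 members did, 13 higher and 2 lower (NDUFAF3 and NDUFA1). Of the 13, 4 were subunits of complex V (ATP5A1, ATP5B, ATP5G2 and ATP5O). With only the probes detected on at least 2 arrays, where 8.38% of the genes left passed, 6 members did, namely COX7C, CYC1, UQCRC1, NDUFA2 and NDUFB10 as higher and NDUFAF3 as lower.

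Other probes of the same genes gave a further reading. Beyond the brightest probes there were 29, of 23 genes. In SH-EP2 cells 4 of the 29 were higher and 0 lower, where 1.94% of such probes on the whole array differed, and they belonged to ATP5D (0.70), ATP5I (0.53), NDUFB3 (0.35) and ATP5H (0.28). In SH-SY5Y cells 1 of the 29 was higher, that of ATP5L (0.67, adjusted p = 0.00481), where 1.32% of such probes differed. Both shares are over all such probes, detected or not, and were not computed among detected probes alone. The brightest probes of these genes read -0.03 for ATP5D, 0.15 for ATP5I, 0.25 for NDUFB3 and 0.12 for ATP5H in SH-EP2 cells and 0.08 for ATP5L in SH-SY5Y cells, none past the threshold, so that probes of a gene did not give the same size of change. These probes are named because they passed, which was seen before they were chosen.

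The knockdown effect was not shown to differ between the lines for any member. At an unadjusted p under 0.05 in limma 9 members passed, 7 with the larger value in SH-EP2 cells. At that threshold 11.4% of all genes and 2179 of the 11321 genes detected on all arrays passed. At an adjusted p under 0.05 0 members differed, where 1.78% of all genes did. The count was 1 (ATP5B, lower in SH-EP2 cells) without SH-SY5Y TRPM7 shRNA replicate 1. The largest fitted differences among members detected on all arrays were those of UQCR (0.56 ± 0.35), NDUFB1 (-0.53), NDUFS1 (-0.51) and NDUFV3 (0.45). Next came SDHA (-0.44 ± 0.15, adjusted p = 0.236), ATP5G3 (0.38) and SDHD (0.37 ± 0.16, adjusted p = 0.423). Across the 92 members the effects in the lines, which share no arrays, had a Pearson r of 0.379, against 0.208 across the 11321 genes detected on all arrays and 0.296 across genes at least as bright as the median member. Above 0 in both lines lay 46 members (50%), against 31.8% and 36.6% of the genes in those groups.

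Around the complexes, genes that feed or regulate oxidative phosphorylation moved as follows with TRPM7 shRNA. Of 17 regulators of mitochondrial biogenesis, 3 rose in SH-EP2 cells and 0 in SH-SY5Y cells. Beside this and the later list counts stand the shares among genes detected on all arrays. In SH-EP2 cells 4.05% of those rose and 4.2% fell, and in SH-SY5Y cells 2.05% rose and 3.86% fell. TFAM, which packages mitochondrial DNA and activates its transcription, read 9.15 ± 0.05 (SD, n = 2) in control and 9.62 ± 0.06 in TRPM7 shRNA SH-EP2 cells (0.47, adjusted p = 0.0106, limma). The rRNA methyltransferase TFB1M rose by 0.57 (adjusted p = 0.0188). The nuclear receptor ESRRG rose by 1.16 (adjusted p = 0.00799) but at low signals, from 3.54 ± 0.47 to 4.70 ± 0.64, and it was detected on 7 of 8 arrays. The TFAM and TFB1M calls were lost without each of the 4 SH-EP2 arrays (adjusted p = 0.0635 to 0.152 and 0.0589 to 0.194), and that of ESRRG without SH-EP2 control replicate 1 (adjusted p = 0.156), without TRPM7 shRNA replicate 2 (adjusted p = 0.19) and with the normexp background correction (0.27, adjusted p = 0.177). The median over the list was 0.17 in SH-SY5Y and 0.19 in SH-EP2 cells, against 0.01 and 0.02 over genes detected on all arrays. Of the 17 regulators 13 were detected on all 8 arrays. The SH-SY5Y median was the value of PPARGC1B, which was detected on 0 arrays. Of 29 measured assembly factors, 3 of them also members, TACO1, a translational activator of complex IV, rose in SH-EP2 cells (0.39, adjusted p = 0.036), a call lost without each of the 4 SH-EP2 arrays (adjusted p = 0.147 to 0.305), and none differed in SH-SY5Y cells.

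The carriers of the inner membrane went the other way in part. SLC25A4, one of the ADP/ATP carriers that supply ADP to the ATP synthase, fell in both lines, from 11.30 ± 0.04 to 10.94 ± 0.06 in SH-SY5Y cells (-0.36, adjusted p = 0.0116) and from 11.54 ± 0.04 to 10.72 on both arrays in SH-EP2 cells (-0.82, adjusted p = 1.3e-06). The other ADP/ATP carriers of the list did not pass, SLC25A5 at -0.01 and -0.07 and SLC25A6 at 0.02 and 0.09 in SH-SY5Y and SH-EP2 cells. The fall of SLC25A4 was larger in SH-EP2 cells (difference -0.46, adjusted p = 0.0317). That difference was lost without 6 of the 8 arrays (adjusted p = 0.0771 to 0.169; SH-SY5Y control replicate 1 and TRPM7 shRNA replicate 1 were the exceptions). The SH-EP2 fall passed whichever array was left out. The SH-SY5Y fall was lost without SH-SY5Y control replicate 1 (adjusted p = 0.0646), without SH-SY5Y TRPM7 shRNA replicate 1 (adjusted p = 0.0978) and with median scaling (-0.24, adjusted p = 0.322). UCP2, a mitochondrial carrier, fell in SH-EP2 cells (-1.37, adjusted p = 0.000455), and the electron transfer flavoprotein dehydrogenase ETFDH (0.67, adjusted p = 0.0149) and the outer membrane channel VDAC1 (0.29, adjusted p = 0.0295) rose in SH-SY5Y cells. The UCP2 call held without each array in turn, although its size was -0.46 with the normexp correction, that of VDAC1 was lost without any 1 of the 8 (adjusted p = 0.0506 to 0.163), and that of ETFDH without SH-SY5Y control replicate 2 or either SH-SY5Y TRPM7 shRNA array (adjusted p = 0.0673 to 0.106, and a rise of 0.41 with normexp). The list of 13 genes also holds electron transfer proteins and outer membrane channels. Of the 13, 2 rose (ETFDH and VDAC1) and 1 fell in SH-SY5Y cells, and 0 rose and 2 fell in SH-EP2 cells.

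Among 13 enzymes of the tricarboxylic acid cycle 1 fell in SH-EP2 cells, SUCLG1 of succinyl-CoA ligase (-0.58, adjusted p = 0.000415, and -0.52 as the difference between lines, adjusted p = 0.0398, lost without any array other than SH-SY5Y TRPM7 shRNA replicate 1, at 0.0543 to 0.216), and none moved in SH-SY5Y cells. Of 17 glycolytic enzymes ALDOC fell in both lines (-0.56 and -0.81, adjusted p = 0.0108 and 0.000234), PFKP fell in SH-SY5Y cells (-0.66, adjusted p = 0.000426) and LDHB rose in SH-EP2 cells (0.27, adjusted p = 0.0471). The falls of SUCLG1 and ALDOC in SH-EP2 cells and of PFKP passed whichever array was left out. The fall of ALDOC in SH-SY5Y cells was lost without SH-SY5Y control replicate 2 or either SH-SY5Y TRPM7 shRNA array (adjusted p = 0.06 to 0.129) and with median scaling (-0.42, adjusted p = 0.127), and the rise of LDHB without either SH-EP2 control array or SH-EP2 TRPM7 shRNA replicate 2 (adjusted p = 0.22 to 0.542). None of the 13 mitochondrially encoded subunits was measured under its symbol, so that the genes of the other genome were not analysed here. Of the 13 noradrenergic markers 3 fell in SH-SY5Y cells and 2 fell and 1 rose in SH-EP2 cells, and of the 13 mesenchymal markers 3 fell in SH-SY5Y cells and 4 fell and 1 rose in SH-EP2 cells, and their part in the values above was not tested.

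SH-EP2 and SH-SY5Y arrays differed in many more members. In the methods of the authors SH-EP2 cells grew in DMEM and SH-SY5Y cells in DMEM/F12 with non-essential amino acids and L-glutamine. Line and medium therefore cannot be told apart in these comparisons. Among control arrays 48 of 92 members differed, 30 of them higher in SH-EP2 cells and 18 higher in SH-SY5Y cells, where 30.1% of all genes and, of those detected on all arrays, 28.4% and 33.1% were higher and lower in SH-EP2 cells. Among TRPM7 shRNA arrays 47 differed, 38 higher and 9 lower in SH-EP2 cells, where 29.9% of all genes and 28.6% and 32% of detected genes did. With median scaling the splits were 22 higher and 22 lower among control arrays and 21 higher and 18 lower among TRPM7 shRNA arrays, where 24.7% and 33.5% and then 20.3% and 38.8% of the genes detected on all arrays were higher and lower. The median over the members was 0.14 and 0.17 in the 2 comparisons, against -0.02 and -0.01 over all genes, and 0.04 and 0.01 against -0.05 and -0.13 with median scaling. These comparisons share no arrays. In both, 36 members differed with the same sign, 28 of them higher and 8 lower in SH-EP2 cells, and 0 differed with opposite signs. The same-sign share was 24.4% of all genes and 51.1% of those detected on all arrays, and 35 of the 81 members detected on all arrays. Across the 92 members their Pearson r was 0.925, and it was 0.927 across the 11321 detected genes.

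**Figure D3:**
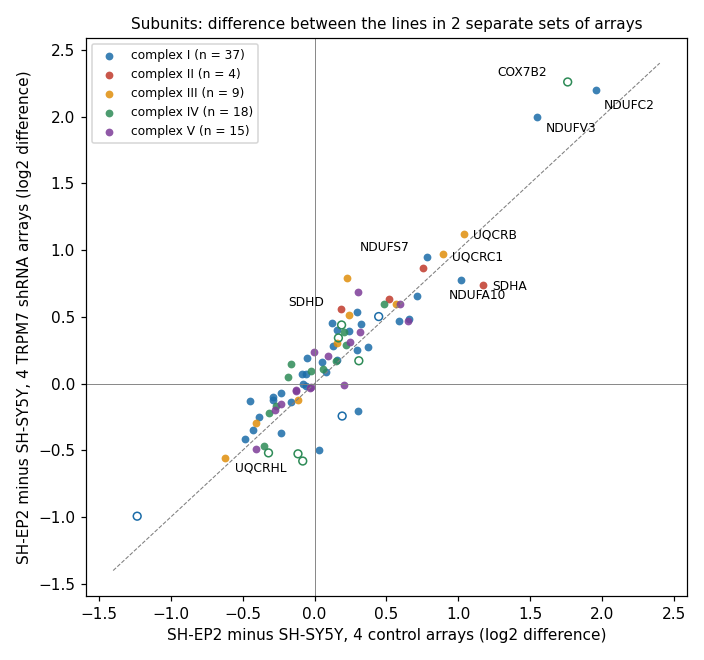
Log2 difference between SH-EP2 and SH-SY5Y cells for each subunit gene, in the control arrays (horizontal axis) and in the TRPM7 shRNA arrays (vertical axis), colored by complex; open points were not detected on all 8 arrays, and the dashed line marks equal values. NDUFC2 and NDUFV3 lie farthest along the dashed line, at 1.96 and 2.20 and at 1.55 and 2.00, and all 4 genes of complex II lie above 0 on both axes.

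Most genes of complex II were higher in SH-EP2 cells, as read from the brightest probes. Among control arrays 3 of its 4 genes differed, with a median of 0.64, and among TRPM7 shRNA arrays all 4 did, with a median of 0.69. With median scaling the medians were 0.61 and 0.54, with 3 genes past the threshold in each. SDHA, the catalytic flavoprotein, read 8.51 and 8.72 on SH-SY5Y control arrays and 9.86 and 9.72 on SH-EP2 control arrays, a gap of 1.17 ± 0.11 (2.25-fold, adjusted p = 2.07e-08, limma). Among TRPM7 shRNA arrays it read 9.02 and 8.93 in SH-SY5Y and 9.71 and 9.72 in SH-EP2 cells (0.74 ± 0.11, adjusted p = 1.18e-05). The SH-EP2 arrays were the brighter ones in every pairing, and the second SDHA probe gave 1.06 and 0.59.

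The iron-sulfur subunit SDHB read 10.99 and 11.10 on SH-SY5Y control arrays and 11.47 and 11.65 on SH-EP2 control arrays (0.52 ± 0.09, adjusted p = 0.000126). SDHD, a membrane anchor, read 9.50 and 9.26 against 9.70 and 9.44, which overlapped (0.18 ± 0.12, adjusted p = 0.319), and 9.09 and 9.31 against 9.72 and 9.79 among TRPM7 shRNA arrays, which did not (0.56 ± 0.12, adjusted p = 0.000749). The other anchor, SDHC, was uncertain because its probes opposed each other. Its brightest probe was higher in SH-EP2 cells by 0.75 ± 0.10 (adjusted p = 2.27e-06), while its second probe, also detected on all arrays, was lower by -0.82 (adjusted p = 0.000113). Their mean gave -0.04 (adjusted p = 0.867), and the same opposition was found among TRPM7 shRNA arrays (0.87 and -0.77).

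The upstream bases of SDHA, SDHB and SDHD are shown because these genes of a single complex were higher in the same line in at least 1 of the comparisons. Capitals mark matches to GCGCATGC (the core bound by NRF1, a regulator of respiratory chain genes), GCGCAGGC (that core with 1 letter changed), CCGGAAG (bound by ETS factors such as GABPA) and ATGGCGG (bound by YY1), each searched on both strands, and the reverse complement of GCGCATGC can overlap the forward match.
SDHA: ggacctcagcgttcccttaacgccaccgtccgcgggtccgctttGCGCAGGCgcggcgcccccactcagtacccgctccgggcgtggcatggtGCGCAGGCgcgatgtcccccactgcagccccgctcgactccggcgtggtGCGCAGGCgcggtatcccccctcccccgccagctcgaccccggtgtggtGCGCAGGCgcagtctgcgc
SDHB: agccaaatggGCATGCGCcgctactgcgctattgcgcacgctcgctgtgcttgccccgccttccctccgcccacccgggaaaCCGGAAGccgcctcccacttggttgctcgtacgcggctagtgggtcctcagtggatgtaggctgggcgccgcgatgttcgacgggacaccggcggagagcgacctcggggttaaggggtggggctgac
SDHD: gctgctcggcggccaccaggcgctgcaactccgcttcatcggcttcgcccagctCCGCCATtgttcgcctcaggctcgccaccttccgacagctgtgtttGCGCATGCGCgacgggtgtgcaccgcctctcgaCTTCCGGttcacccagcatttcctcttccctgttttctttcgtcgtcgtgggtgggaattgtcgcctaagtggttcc
They lie at chr5:218110-218319 (plus strand), chr1:17054033-17054242 (minus strand) and chr11:112086663-112086872 (plus strand). SDHA held GCGCAGGC 4 times in these bases, starting at -166, -117, -68 and -19 from the start. The matches are evenly spaced, as copies of a repeated stretch would be, and need not be separate occurrences. Over the windows of all members, GCGCATGC was found for 14 of 73 genes (19.2%, against 3.68% of all genes), GCGCAGGC for 11 (15.1% against 7.41%), CCGGAAG for 21 (28.8% against 12.2%) and ATGGCGG for 20 (27.4% against 6.66%). A match is a description of the letters and not a bound site.

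Complex III was split by subunit. Among control arrays 4 of its 9 genes were higher and 2 lower in SH-EP2 cells (median 0.23), and among TRPM7 shRNA arrays 6 were higher and 1 lower (median 0.52). The Rieske iron-sulfur protein UQCRFS1 read 11.34 and 11.44 on SH-SY5Y control arrays and 11.88 and 12.02 on SH-EP2 control arrays (0.56 ± 0.08, adjusted p = 5.18e-06). The core protein UQCRC1 read 9.78 and 9.96 against 10.74 and 10.78 (0.89 ± 0.09, adjusted p = 5.45e-08), whereas the other core protein, UQCRC2, read 9.30 and 8.92 against 8.77 and 8.65 (-0.40 ± 0.12, adjusted p = 0.0152). The core proteins thus lay on opposite sides, each without overlap between the lines, although the UQCRC2 call was lost without SH-SY5Y control replicate 1 (-0.21, adjusted p = 0.270) and without SH-EP2 control replicate 2 (-0.34, adjusted p = 0.135). CYC1 was higher in SH-EP2 cells by 0.24 ± 0.08 among control arrays (adjusted p = 0.02) and 0.52 ± 0.08 among TRPM7 shRNA arrays (adjusted p = 1.47e-05), the former lost without SH-EP2 control replicate 1 (0.22, adjusted p = 0.142), without SH-EP2 control replicate 2 (0.26, adjusted p = 0.0693) and without SH-SY5Y control replicate 2 (0.18, adjusted p = 0.159). UQCRB, which binds ubiquinone, was higher by 1.04 ± 0.12 (adjusted p = 4.8e-07) on its brightest probe and by 0.17 and 0.22 on the others. Those others were dimmer, with mean signals of 5.36 and 2.82 against 9.61, and the dimmest was detected on 3 arrays. The mean over the UQCRB probes did not pass (0.48, adjusted p = 0.0992). Among TRPM7 shRNA arrays the probes gave 1.12, 0.34 and 1.31, of which the first passed (adjusted p = 1.67e-07). UQCRHL, a near-identical copy of UQCRH, was lower by -0.62 ± 0.08 (adjusted p = 1.45e-06), and the brightest UQCRH probe gave -0.12 and the second -1.69, so that signals of this pair are uncertain.

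**Figure D4:**
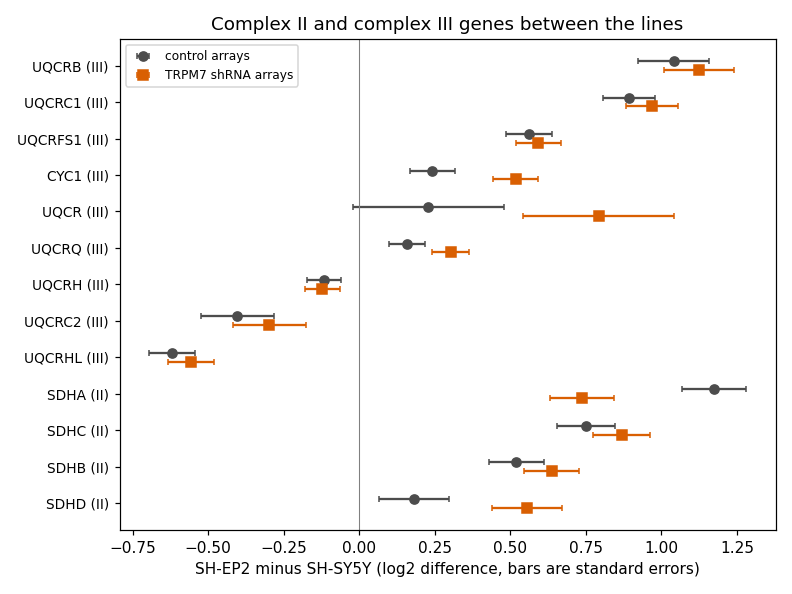
Log2 difference between SH-EP2 and SH-SY5Y cells for the genes of complexes II and III, among control arrays (circles) and TRPM7 shRNA arrays (squares), with standard errors of the limma fit (2 arrays a group). The core proteins UQCRC1 (0.89) and UQCRC2 (-0.40) of complex III lie on opposite sides of 0 among control arrays, and the genes of complex II lie above it.

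Complex I held the members with the largest gaps measured on both sides with the RMA background correction. NDUFC2, an accessory subunit of its membrane arm, read 4.20 and 3.37 on SH-SY5Y control arrays and 5.86 and 5.63 on SH-EP2 control arrays (1.96 ± 0.35, 3.88-fold, adjusted p = 0.000161). NDUFV3, an accessory subunit beside the NADH-binding site, read 5.34 and 5.11 against 6.85 and 6.70 (1.55 ± 0.24, adjusted p = 2.63e-05). Neither overlapped between the lines, but both had low signals and their gaps shrank with other background corrections, to 0.57 and 0.74 with normexp and 0.40 and 0.56 with none, where they still passed but lay below the SDHA gap (1.05 and 0.98). NDUFA10 was higher by 1.02 ± 0.11 (adjusted p = 3.66e-07), with 0.35 on its second probe, and NDUFS7, which carries the last iron-sulfur cluster before ubiquinone, by 0.78 ± 0.10 (adjusted p = 1.73e-06). Lower in SH-EP2 cells were NDUFAB1, the acyl carrier protein (-0.48 ± 0.09, adjusted p = 0.000191), NDUFB9 (-0.45 ± 0.11, adjusted p = 0.00422), NDUFB3 (-0.43 ± 0.08, adjusted p = 0.000361) and NDUFV2 (-0.38 ± 0.09, adjusted p = 0.00143). The NDUFB9 call was lost without SH-SY5Y control replicate 1 (-0.28, adjusted p = 0.117) and without SH-EP2 control replicate 2 (-0.41, adjusted p = 0.052). In all, 10 of the 37 genes were higher and 7 lower, with a median of 0.12.

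Complex IV has alternative forms of several subunits, a common form and a form restricted to tissues such as muscle, lung or testis. The common forms COX4I1, COX6A1, COX6B1, COX7A2, COX7B, COX8A and NDUFA4 were detected on all 8 arrays. Of the restricted forms COX4I2, COX6A2, COX6B2, COX7A1, COX8C and NDUFA4L2 were detected on 0 arrays, and COX7B2, a form known from testis, on the 4 SH-EP2 arrays. COX7B2 read 3.64 and 3.57 on SH-EP2 control arrays and 3.63 and 4.64 on SH-EP2 TRPM7 shRNA arrays, and it was at least 1.36-fold higher than in SH-SY5Y control cells (adjusted p = 0.00923, limma) and at least 2.15-fold higher than in SH-SY5Y TRPM7 shRNA cells (adjusted p = 0.00115). The bounds were lower with other background corrections, at 1.15-fold and 1.43-fold with neqc, 1.06-fold and 1.17-fold with normexp and 1.04-fold and 1.11-fold with none. For this bound the mean of the detected group was set against the lowest detected signal of each dimmer array, or the probe's own signal where that was higher. The first call was lost without SH-SY5Y control replicate 2 (adjusted p = 0.0607). Its common counterpart COX7B was lower in SH-EP2 control cells, at 10.88 and 10.97 against 11.37 and 11.11 (-0.32 ± 0.09, adjusted p = 0.0073), a call lost without SH-SY5Y control replicate 1 (-0.19, adjusted p = 0.148) and without SH-EP2 control replicate 1 (adjusted p = 0.0952). COX4I1 was higher in SH-EP2 cells (0.48 ± 0.07, adjusted p = 1.34e-05), as was COX8A (0.22 ± 0.07, adjusted p = 0.0257), although with median scaling COX8A gave 0.04 (adjusted p = 0.818) and did not pass without SH-SY5Y control replicate 1 (adjusted p = 0.186) or SH-EP2 control replicate 2 (adjusted p = 0.253). NDUFA4 (-0.35 ± 0.07, adjusted p = 0.00047) and COX6B1 (-0.27 ± 0.07, adjusted p = 0.00564) were lower, the latter call lost without SH-EP2 control replicate 1 (-0.18, adjusted p = 0.163), and COX6A1 (-0.17 ± 0.08) and COX7A2 (0.06 ± 0.06) did not pass.

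In complex V 5 of 15 genes were higher and 3 lower in SH-EP2 control cells, with a median of -0.005, and 7 were higher and 1 lower among TRPM7 shRNA arrays. With median scaling the counts were 3 higher and 5 lower and 2 higher and 6 lower. ATP5C1, the central stalk subunit gamma, read 10.93 and 10.85 on SH-SY5Y control arrays and 10.53 and 10.43 on SH-EP2 control arrays (-0.41 ± 0.08, adjusted p = 0.00047). It was lower in SH-EP2 cells among TRPM7 shRNA arrays too (-0.49 ± 0.08, adjusted p = 6.42e-05), without overlap between the lines. ATP5B was higher in SH-EP2 control cells by 0.20 ± 0.07 (adjusted p = 0.0349), and among TRPM7 shRNA arrays the lines lay -0.01 ± 0.07 apart (adjusted p = 0.937). The former call was lost with median scaling (0.07, adjusted p = 0.544), without each of the 4 SH-EP2 arrays and without either SH-SY5Y control array (adjusted p = 0.0517 to 0.198). Of the members that are not subunits, ATP5SL, now named DMAC2, lay furthest below its SH-SY5Y level in SH-EP2 control cells, at 9.11 and 9.06 against 9.72 and 9.94 (-0.75 ± 0.10, adjusted p = 5.83e-06).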

How the data were processed

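GenomeStudio 2011.1 was used by the authors to extract bead signal intensities and detection p-values from Illumina HumanHT-12 arrays, and the deposited intensities are linear and had not been normalized. Samples were grouped by cell line and shRNA as labelled. As in the methods of the authors, RMA was applied here (background model, then quantile normalization of the 8 arrays, then log2), and every probe was retained. Groups were compared in limma 3.58.1 (R 4.3.3) with 1 mean for each of the 4 groups and eBayes moderation that follows the signal level. Two-sided p-values were adjusted by Benjamini-Hochberg over 47322 probes. The procedure was tested on simulated data.

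The members and the accompanying lists were chosen with earlier results of these data known. Named were all members past the threshold with TRPM7 shRNA, completed to 5 per direction by size (only members detected on 2 arrays in the brighter group), the first 8 per direction between the lines in control cells, the SDH genes, CYC1, UQCRFS1, alternative forms, and up to 3 genes per list and direction. The fit was repeated with other background corrections (normexp with offset 50, neqc with offset 16, or none), with median scaling, on probes detected on at least 2 arrays, without the intensity trend, within each line for the knockdown comparisons, with the replicate number as a block, with a gene's probes averaged, and without each array, 1 at a time. Where that left a group with 1 array, the lone array was assumed to vary like the other groups.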

Additional observations from a re-analysis of the deposited data

Results flagged for a closer look

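Around the complexes, 2 genes changed with TRPM7 shRNA by different amounts in the lines, as read from the fitted difference between the effects (limma, adjusted over all probes). SUCLG1, of succinyl-CoA ligase in the tricarboxylic acid cycle, moved by -0.06 in SH-SY5Y and fell by 0.58 in SH-EP2 cells, a difference of -0.523 (adjusted p = 0.0398). It was lost with the replicate block (adjusted p = 0.078), with probes averaged (adjusted p = 0.0545), and without any array other than SH-SY5Y TRPM7 shRNA replicate 1 (adjusted p = 0.0543 to 0.216). SLC25A4, one of 3 ADP/ATP carriers on the list, fell in both lines, by 0.36 and 0.82, with a difference of -0.463 (adjusted p = 0.0317). It was lost with the replicate block (adjusted p = 0.0949) and without any array other than SH-SY5Y control replicate 1 or SH-SY5Y TRPM7 shRNA replicate 1 (adjusted p = 0.0771 to 0.169). Without an intensity trend neither passed (adjusted p = 0.556 and 0.589).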

How the results depend on the processing

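No named member value that had passed the threshold changed direction under any alternative that was run, except SDHC between the lines in control cells, which turned to -0.035 with its probes averaged. Of 2925 values of named members under alternatives, 125 lost their place past the threshold and 26 gained one, and of 270 values of the listed genes 85 lost it. Without an intensity trend in eBayes, 0 members differed with TRPM7 shRNA in SH-SY5Y cells and 0 in SH-EP2 cells, 15 differed between the lines in control cells and 16 in TRPM7 shRNA cells, and SLC25A4, UCP2, SUCLG1 and ALDOC in SH-EP2 cells and PFKP in SH-SY5Y cells had adjusted p-values of 0.127, 0.0837, 0.272, 0.138 and 0.289. With each cell line alone the counts with TRPM7 shRNA were 1 in SH-SY5Y and 15 in SH-EP2 cells, and with only the probes detected on at least 2 arrays the SH-EP2 count was 6. The cause of these shifts was not tested.

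No source says whether replicate numbers pair the samples. The differences between replicates 1 and 2 of control and TRPM7 shRNA cells correlated at -0.111 in SH-SY5Y and -0.00447 in SH-EP2 cells over 14577 probes. No large shared replicate effect was thus seen, but with 2 arrays a group these values cannot show that the samples were handled apart. With the replicate number as a block, 1 member differed in SH-EP2 cells (CYC1 lost, adjusted p = 0.0785) and 2 in SH-SY5Y cells (NDUFS4 lost, adjusted p = 0.0795), and VDAC1, TACO1 and LDHB no longer passed.

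Leaving out 1 array at a time gave 2 members in SH-SY5Y cells, 1 to 7 in SH-EP2 cells, 0 to 1 for the difference of the effects, and 34 to 50 between the lines in control cells and 34 to 50 in TRPM7 shRNA cells. The SH-EP2 count was 7 without SH-SY5Y control replicate 1 and 6 without SH-SY5Y control replicate 2, arrays that enter it through the shared spread and the normalization, and it was 1 without SH-EP2 control replicate 2 or without SH-EP2 TRPM7 shRNA replicate 1 or 2.

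The median over the members was 0.003 to 0.078 with TRPM7 shRNA in SH-SY5Y cells and 0.095 to 0.1 in SH-EP2 cells with arrays left out. With median scaling it was 0.157 in SH-SY5Y cells, against 0.15 over genes detected on all arrays. Between the lines in control cells it was 0.074 with normexp, 0.063 with no background correction, 0.036 with median scaling and 0.069 to 0.139 with arrays left out, the lowest without SH-SY5Y control replicate 2. Differences for the 11 members not detected on all arrays are limited by signals close to background.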
